A study of Homo sapiens with 12 samples.

Results

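The AP-1 and immediate early transcription factors described here are 10 human genes taken by name: the FOS family (FOS, FOSB, FOSL1, FOSL2), the JUN family (JUN, JUNB, JUND), ATF3, EGR1 and MYC. All 10 were found among the 23064 gene symbols of each deposited table, and all 10 passed the filter on low counts in both cell lines, with 14673 genes tested for CAL-29 and 14335 for 5637. Upon KMT9α knockdown, FOSL1 and MYC were upregulated and JUN and FOSB were downregulated in both lines, whereas JUNB, ATF3 and EGR1 moved in opposite directions. The largest change was that of EGR1 in 5637 cells, where its level fell 3.90-fold.

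Both CAL-29 and 5637 are human cell lines established from bladder carcinomas, and both are labelled WT in genotype. RNAseq had been performed on cells of each line harvested 3 days after treatment with a control siRNA (siCtrl) or an siRNA against KMT9α, the lysine methyltransferase subunit encoded by N6AMT1, with 3 libraries per group and 12 in all. CAL-29 cells received 50 nM siRNA and 5637 cells 90 nM, each with its own transfection reagent and medium, both media containing serum, so that dose, reagent and medium cannot be told apart from the cell line. The labels do not name the siRNA; that it is siKMT9α#1, hereafter siKMT9α, is taken from the study's text, and a single siRNA against KMT9α was sequenced.

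AP-1 is a dimer of basic leucine zipper proteins. FOS family proteins cannot pair with each other and bind DNA with a JUN family partner, whereas JUN family proteins can also pair among themselves, and the dimer binds the motif TGACTCA or, with ATF partners, the related cyclic AMP response element (CRE). FOS, FOSB, EGR1 and, in many cells, JUN, JUNB, ATF3 and MYC are immediate early genes: serum, growth factors or stress induce their transcripts within minutes through the ERK, JNK and p38 kinases without new protein synthesis, and FOS and EGR1 transcripts decay quickly. FOSL1 and FOSL2 follow later and last longer, and FOSL1 is a known output of sustained ERK signalling in carcinoma cells.

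Total counts were between 24479348.5 and 35151256.5 per library. N6AMT1 was downregulated in both lines, with a log2 fold change of −2.00 ± 0.15 (SE) for CAL-29 and −2.23 ± 0.12 for 5637, and its siKMT9α libraries lay below its siCtrl libraries in each line. All 10 epithelial and urothelial markers checked were at 1 CPM or more in 3 of the 4 groups and 9 of 10 in 5637 siKMT9α cells. Their summed level fell from between 12957 and 13654 CPM in siCtrl to between 6611 and 6748 CPM in siKMT9α CAL-29 cells, and from between 9027 and 9336 to between 5988 and 6146 CPM for 5637. This fall went with siKMT9α in both lines, as the changes described below did, and its part in them was not tested. Of 10 markers of leukocytes, endothelium, muscle and neurons, 1 or 2 reached 1 CPM in a group, with sums of 9.79 to 10.5 CPM in siCtrl and 15.9 to 17.4 CPM in siKMT9α CAL-29 cells and, for 5637, of 3.86 to 5.09 and 4.85 to 4.95 CPM. In these bulk samples, fewer cells with a transcript and less of it per cell cannot be told apart.

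Levels by library are given as CPM, counts brought to a common library size with TMM scaling within a line, in the order of replicates 1, 2 and 3. Log2 fold changes are siKMT9α over siCtrl with their standard error, and adjusted p-values are Benjamini-Hochberg values over all genes tested, from edgeR's quasi-likelihood test. A gene is said to be upregulated (or to rise) or downregulated (to fall) at an adjusted p below 0.05. A DEG is a gene with an unadjusted p below 1e-06, the threshold of the study. The study does not name the edgeR test it used, so the DEGs given here need not be its DEGs. Nothing in the labels says that the replicates came from separate cultures, so the p-values measure the spread between these libraries, which may be technical.

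In CAL-29 cells, 4 of the 10 members were upregulated (FOSL1, JUNB, EGR1, MYC), 4 were downregulated (FOSB, FOSL2, JUN, ATF3), and FOS and JUND passed in neither direction. Among all genes tested in that line, 34.3% were upregulated and 35.2% downregulated. Past 1e-06 there were 2 upregulated members, FOSL1 and MYC, and 2 downregulated members, JUN and ATF3, against 15.0% of all genes in either direction. The siKMT9α libraries lay above all siCtrl libraries for 4 members and below all of them for 4, and 72.3% of all genes tested were apart in this way. The count of members set apart was near this background.

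In 5637 cells, 3 members were upregulated (FOSL1, ATF3, MYC), 6 were downregulated (FOS, FOSB, JUN, JUNB, JUND, EGR1), and FOSL2 passed in neither direction. Of all genes tested in 5637 cells, 35.1% were upregulated and 35.6% downregulated. All 3 upregulated members and 5 of the 6 downregulated ones were DEGs, FOSB being the exception, against 18.0% and 17.6% of all genes. The libraries did not overlap for 9 members, and for 72.4% of all genes. The share of members that were DEGs was above that of all genes, a difference that was not tested. Across both lines, 2 members were upregulated in each, 2 were downregulated in each and 3 moved in opposite directions, whereas 22.6%, 21.7% and 9.89% of the 13674 genes tested in both lines did so.

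**Figure D1:**
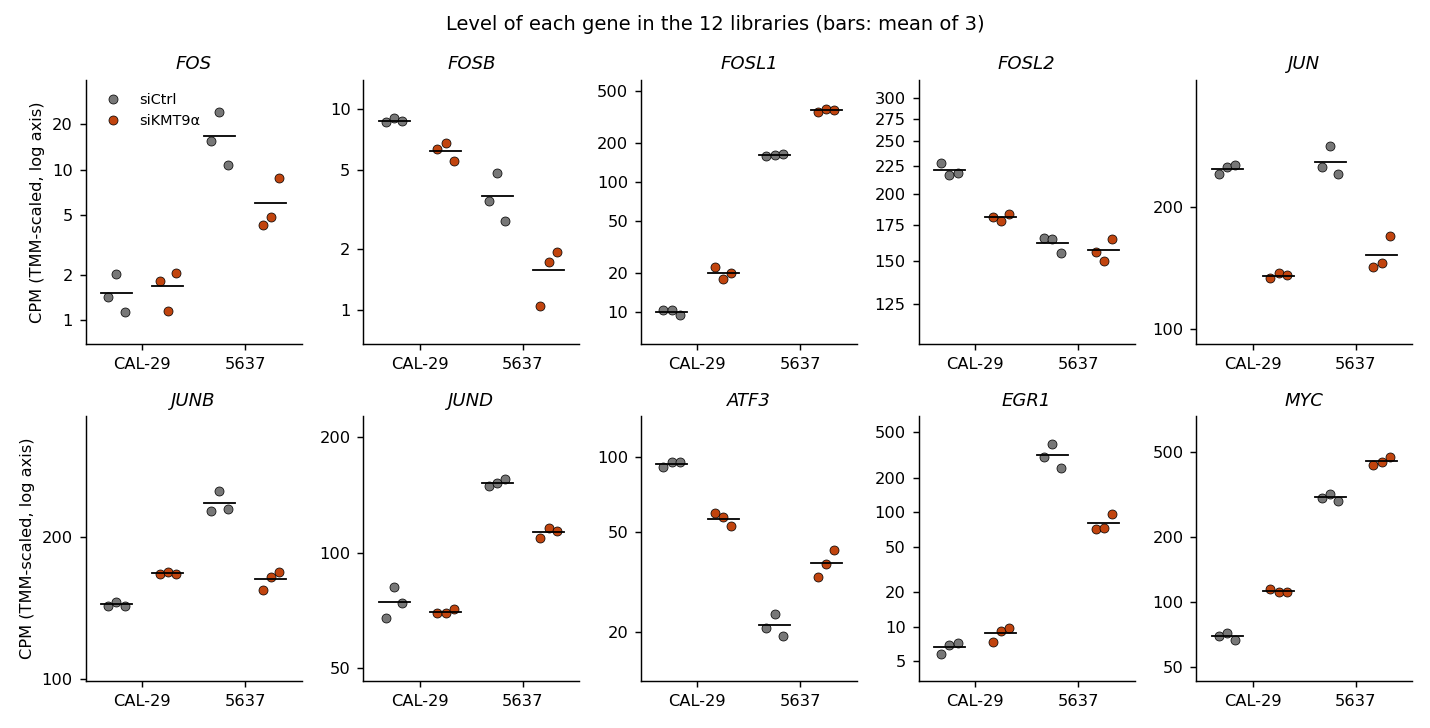
CPM (TMM-scaled within a line, log axis) of each of the 10 genes in the 12 libraries, with siCtrl in grey, siKMT9α in orange and a bar at the mean of 3 libraries. FOSL1 and MYC lie higher and JUN and FOSB lower after siKMT9α in both lines, whereas EGR1, ATF3 and JUNB move in opposite directions.

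FOSL1 encodes FRA-1, an AP-1 subunit without the transactivation domain of FOS that is often abundant in invasive carcinoma cells. The gene lies at chr11:65659520-65668044 on the minus strand (GRCh37, 4 exons). In CAL-29 cells, FOSL1 was at 10.4, 10.3 and 9.49 CPM in the siCtrl libraries and at 22.1, 18.0 and 19.8 CPM in the siKMT9α libraries. In 5637 cells, it was at 159, 160 and 163 CPM in siCtrl and at 345, 364 and 357 CPM in siKMT9α. Every siKMT9α library thus lay above every siCtrl library of its line. FOSL1 was upregulated 1.99-fold in CAL-29 cells (log2 0.99 ± 0.09, adjusted p = 9.14e-09) and 2.21-fold in 5637 cells (log2 1.15 ± 0.03, adjusted p = 1.83e-22). The difference between the responses, CAL-29 minus 5637, was −0.14 ± 0.09 on the log2 scale (adjusted p = 0.192); without CAL-29 siKMT9α replicate 1 it was −0.22, with an adjusted p of 0.0333.

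FOS, the namesake of the family, was the least abundant member per length in CAL-29 cells. Its gene is at chr14:75745529-75748933 on the plus strand. The CAL-29 siCtrl libraries held 1.43, 2.03 and 1.13 CPM of FOS and the siKMT9α libraries 1.82, 1.16 and 2.07 CPM. These groups overlapped, at a mean of 43.8 counts per library, and FOS was not called (log2 0.12 ± 0.27, adjusted p = 0.715). In 5637 cells, FOS was at 15.6, 24.3 and 10.8 CPM in siCtrl and at 4.27, 4.84 and 8.83 CPM in siKMT9α. The groups did not overlap there, although both were widely spread, and FOS was downregulated 2.76-fold (log2 −1.47 ± 0.20, adjusted p = 2.72e-07). The responses of the lines differed by 1.60 ± 0.46 (adjusted p = 0.00442).

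FOSB, whose product resembles FOS in structure, lies at chr19:45971253-45978437 on the plus strand. In CAL-29 cells, FOSB was at 8.61, 8.99 and 8.69 CPM in siCtrl and at 6.36, 6.77 and 5.49 CPM in siKMT9α. The 5637 libraries held 3.50, 4.82 and 2.78 CPM in siCtrl and 1.05, 1.74 and 1.94 CPM in siKMT9α. The siKMT9α libraries were thus the lower ones in each line. FOSB was downregulated 1.41-fold in CAL-29 cells (log2 −0.49 ± 0.12, adjusted p = 0.000906) and 2.31-fold in 5637 cells (log2 −1.21 ± 0.21, adjusted p = 8.24e-06). The response differed by 0.73 ± 0.25 between the lines (adjusted p = 0.0172), a call that was lost without 5637 siCtrl replicate 2 (0.51, adjusted p = 0.0927) or 5637 siKMT9α replicate 1 (0.52, adjusted p = 0.0928).

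FOSL2, which encodes FRA-2, lies at chr2:28615315-28640184 on the plus strand (GRCh37, 4 exons). It was at 227, 216 and 218 CPM in siCtrl and 181, 178 and 183 CPM in siKMT9α CAL-29 cells. In 5637 cells, FOSL2 was at 166, 165 and 155 CPM in siCtrl and at 156, 150 and 164 CPM in siKMT9α. FOSL2 was lower in every siKMT9α library of CAL-29 cells, and its libraries overlapped in 5637 cells. It was downregulated 1.22-fold in CAL-29 cells (log2 −0.29 ± 0.05, adjusted p = 9.25e-06), and the change in 5637 cells was −0.04 ± 0.04 (adjusted p = 0.314), which passed the threshold when libraries were scaled by total counts (−0.10, adjusted p = 0.0234) or by the upper quartile (−0.08, adjusted p = 0.0483). The responses differed by −0.23 ± 0.06 (adjusted p = 0.00187), and by −0.11 with scaling by total counts, which ended the call (adjusted p = 0.114).

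An siRNA can lower transcripts other than its target when their 3′ untranslated region holds the complement of guide positions 2 to 8, here ACATTCA. FOSL2 was the only member with this site in an annotated 3′ untranslated region, by the longest and by the shortest region of each gene. Of 12395 genes with such a region, 15.4% held the site by the longest region and 5.99% by the shortest. The windows of 25 bases around the intended target, in exon 3 of N6AMT1 (chr21:30254500-30254524, minus strand), and around the FOSL2 site, in exon 4 (chr2:28637052-28637076, plus strand, GRCh37), are shown because they share these letters, in capitals.
N6AMT1: acgctgtaacaaagttcACATTCAa
FOSL2: gtggagaaagcagtgacACATTCAc
A match is a description, and whether it had a part in the change of FOSL2 was not tested.

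JUN encodes the main transactivating partner of FOS family proteins. The gene has 1 exon and lies at chr1:59242517-59249720 on the minus strand of GRCh37. The siCtrl libraries of CAL-29 cells held 240, 251 and 253 CPM of JUN and the siKMT9α libraries 133, 137 and 136 CPM. The 5637 libraries were at 251, 282 and 241 CPM in siCtrl and 142, 145 and 169 CPM in siKMT9α. Every siKMT9α library of both lines was well below the siCtrl libraries. JUN was downregulated 1.83-fold in CAL-29 cells (log2 −0.87 ± 0.05, adjusted p = 5.47e-13) and 1.69-fold in 5637 cells (log2 −0.76 ± 0.05, adjusted p = 1.06e-13). The responses differed by −0.10 ± 0.08 (adjusted p = 0.314).

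ATF3, a stress-induced factor of the ATF and CREB family that pairs with JUN proteins and can repress transcription, was the member with the clearest change of direction. It lies at chr1:212738676-212794119 on the plus strand. In CAL-29 cells, ATF3 was at 90.8, 95.4 and 95.0 CPM in siCtrl and at 59.5, 57.1 and 53.0 CPM in siKMT9α. In 5637 cells, its level was 20.7, 23.6 and 19.3 CPM in siCtrl and 33.0, 37.2 and 42.5 CPM in siKMT9α. No library of a group overlapped with the other group of its line. ATF3 was downregulated 1.66-fold in CAL-29 cells (log2 −0.73 ± 0.05, adjusted p = 1.2e-10) and upregulated 1.78-fold in 5637 cells (log2 0.83 ± 0.07, adjusted p = 5.6e-11). The difference of −1.55 ± 0.10 between the responses had an adjusted p of 1.81e-13.

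The windows from 250 bases before to 50 bases after the start sites of JUN (chr1:58783998-58784297, minus strand) and of the upstream of 2 ATF3 start sites (chr1:212565157-212565456, plus strand) both held the element TGACATCA, a CRE-like site to which JUN and ATF2 bind in the JUN promoter, shown in capitals at −67 in JUN and at −123 in ATF3, counted from the start site. These sequences are from RefSeq on GRCh38.p14, not the build of the counts, and are shown because the shared element went with a change in the same direction in CAL-29 cells and in opposite directions in 5637 cells.
JUN: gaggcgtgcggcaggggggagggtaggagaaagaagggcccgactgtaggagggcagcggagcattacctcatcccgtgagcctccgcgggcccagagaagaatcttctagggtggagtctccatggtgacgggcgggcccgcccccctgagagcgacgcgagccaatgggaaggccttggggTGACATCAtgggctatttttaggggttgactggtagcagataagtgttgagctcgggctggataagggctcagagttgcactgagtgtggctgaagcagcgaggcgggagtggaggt
ATF3: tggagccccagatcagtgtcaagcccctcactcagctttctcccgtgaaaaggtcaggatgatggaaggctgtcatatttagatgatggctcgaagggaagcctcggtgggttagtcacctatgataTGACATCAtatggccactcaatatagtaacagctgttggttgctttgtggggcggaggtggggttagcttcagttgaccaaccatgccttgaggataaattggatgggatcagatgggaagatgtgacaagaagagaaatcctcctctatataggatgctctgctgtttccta
The element was searched on both strands after the JUN window had been seen, and 2.61% of the 35116 promoter windows of the table held it. There were 9 windows for 8 of the 10 members, all but FOSL1 and MYC, with 2 for ATF3. The other ATF3 window did not hold TGACATCA on either strand. Counts of the ATF3 transcripts were close to each other and do not show which start site was in use. The 7-base AP-1 motif TGACTCA, searched on both strands, was found in FOSL2, at position 4, and in 4.95% of all windows. JUND held the full CRE TGACGTCA at −200, as 1.85% of all windows did. Its core TGACG, on either strand and contained in every full CRE, was found in JUN, FOSL2, EGR1, FOS, JUNB, JUND and FOSB and in 24.6% of all windows. None of these 9 windows held the E-box CACGTG or the EGR motif GCGTGGGCG, and 7.26% and 0.795% of all windows did. Not finding these letters in a window says nothing about the factor.

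JUNB, a JUN family member with weaker transactivation than JUN, has 1 exon at chr19:12902300-12904129 on the plus strand. Its level in CAL-29 cells was 142, 146 and 143 CPM in siCtrl and 166, 169 and 166 CPM in siKMT9α. In 5637 cells, JUNB was at 227, 249 and 229 CPM in siCtrl and at 154, 164 and 168 CPM in siKMT9α. The siKMT9α libraries were thus the higher ones in CAL-29 cells and the lower ones in 5637 cells. JUNB was upregulated 1.16-fold in CAL-29 cells (log2 0.22 ± 0.04, adjusted p = 0.000178) and downregulated 1.45-fold in 5637 cells (log2 −0.53 ± 0.04, adjusted p = 5.18e-13), with a difference of 0.77 ± 0.06 (adjusted p = 1.17e-11). Of its exon bases, 14.2% lie under HOOK2 on the other strand, and the strand setting of the counting was not given in the sources used here.

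JUND, the JUN family member that is expressed more steadily, has 1 exon at chr19:18390504-18392432 on the minus strand. The CAL-29 libraries held 67.6, 81.3 and 73.9 CPM in siCtrl and 69.8, 69.5 and 71.4 CPM in siKMT9α. These groups overlapped, and the change of −0.08 ± 0.06 did not pass (adjusted p = 0.225), except without siCtrl replicate 1, where it was −0.14 with an adjusted p of 0.0111. The 5637 libraries were at 150, 152 and 155 CPM in siCtrl and 109, 116 and 114 CPM in siKMT9α. JUND was downregulated 1.35-fold in 5637 cells (log2 −0.43 ± 0.04, adjusted p = 1.06e-11), and the responses differed by 0.36 ± 0.07 (adjusted p = 8.59e-05).

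EGR1 encodes a zinc finger factor that is induced by ERK through serum response factor and its ternary complex partners, which bind CArG boxes. It showed the widest gap between the lines and the largest change. In CAL-29 cells, EGR1 was at 5.83, 7.00 and 7.26 CPM in siCtrl and at 7.37, 9.21 and 9.70 CPM in siKMT9α. In 5637 cells, the siCtrl libraries were at 299, 394 and 242 CPM and the siKMT9α libraries at 71.0, 72.6 and 95.5 CPM. In 5637 cells the highest siKMT9α library was thus well below the lowest siCtrl library, while in CAL-29 cells the groups nearly touched. EGR1 was downregulated 3.90-fold in 5637 cells (log2 −1.96 ± 0.10, adjusted p = 5.06e-16), and 1.60% of the genes tested there changed more in size. In CAL-29 cells it was upregulated 1.30-fold (log2 0.38 ± 0.13, adjusted p = 0.0126). That call was lost without siKMT9α replicate 2 (0.34, adjusted p = 0.053) or replicate 3 (0.31, adjusted p = 0.0667), and when all 12 libraries shared 1 model (0.40, adjusted p = 0.0932). The responses differed by 2.36 ± 0.23 (adjusted p = 1.49e-09).

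The EGR1 promoter window (chr5:138465229-138465528, plus strand, RefSeq on GRCh38.p14) is shown because EGR1 was the member that changed most and its window is the one among these 9 windows that held the CArG box motif, CC and GG around 6 bases that are each A or T.
EGR1: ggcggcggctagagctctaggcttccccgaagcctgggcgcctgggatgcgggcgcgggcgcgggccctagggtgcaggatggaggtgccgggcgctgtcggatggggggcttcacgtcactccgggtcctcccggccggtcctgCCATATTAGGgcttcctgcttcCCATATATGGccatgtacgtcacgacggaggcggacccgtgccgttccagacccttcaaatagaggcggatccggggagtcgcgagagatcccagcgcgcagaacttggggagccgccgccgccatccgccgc
The 2 boxes, in capitals, begin at −105 and −83 from the start site, and 1.29% of all windows held at least 1. On GRCh37, the build of the counts, the gene lies at chr5:137801168-137804992 on the plus strand, with 2 exons.

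The change of each member in both lines, set side by side in the plot of log2 fold changes, differed between the lines for 8 of the 10 members at an adjusted p below 0.05, all but FOSL1 and JUN, and for 50.4% of the 15395 genes tested in both lines together. The response was higher in CAL-29 than in 5637 cells for FOS, FOSB, JUNB, JUND, EGR1 and MYC, and lower for FOSL2 and ATF3.

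**Figure D2:**
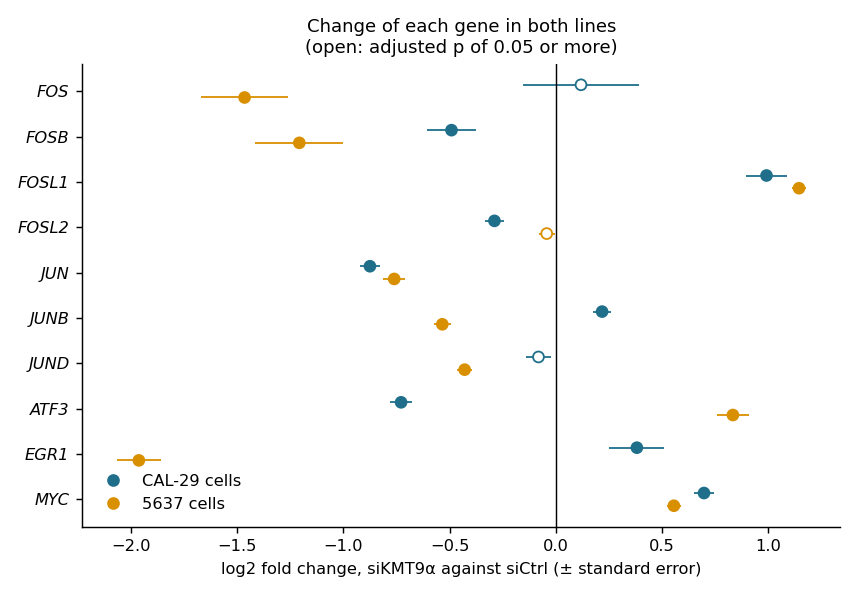
Log2 fold change of each gene, siKMT9α against siCtrl, with its standard error, in CAL-29 cells (blue) and 5637 cells (yellow), from 3 libraries per group; open points have an adjusted p of 0.05 or more. FOSL1, JUN and MYC have nearly the same position in both lines, whereas EGR1 lies at 0.38 and −1.96 and ATF3 at −0.73 and 0.83.

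MYC encodes a basic helix-loop-helix factor that pairs with MAX, binds the E-box and drives growth and ribosome production. The gene lies at chr8:128747680-128755197 on the plus strand (GRCh37, 3 exons). MYC was at 69.8, 72.3 and 66.8 CPM in siCtrl and 116, 112 and 111 CPM in siKMT9α CAL-29 cells. In 5637 cells, MYC was at 305, 318 and 296 CPM in siCtrl and 434, 445 and 471 CPM in siKMT9α. All siKMT9α libraries were above all siCtrl libraries of their line. MYC was upregulated 1.62-fold in CAL-29 cells (log2 0.70 ± 0.05, adjusted p = 6.52e-11) and 1.47-fold in 5637 cells (log2 0.56 ± 0.03, adjusted p = 1.88e-14). The responses differed by 0.16 ± 0.06 (adjusted p = 0.0345), which was no longer called without CAL-29 siCtrl replicate 3, CAL-29 siKMT9α replicate 1, 5637 siCtrl replicate 2, 5637 siKMT9α replicate 1 or 5637 siKMT9α replicate 2 (0.13 to 0.15), or with DESeq2 (0.14, adjusted p = 0.0578). Of the MYC exon bases, 5.21% lie under CASC11 on the other strand.

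Within 5637 cells, FOS, FOSB and EGR1 were spread more widely between replicates than most genes. Their coefficients of variation were 40.6%, 28.0% and 24.7% in siCtrl libraries, against a median of 3.97% over 12575 genes, and 41.6%, 29.6% and 17.2% in siKMT9α libraries, against a median of 4.18%. All 3 were highest in siCtrl replicate 2, lowest in siCtrl replicate 3, and highest in siKMT9α replicate 3. The other members followed in part: 7 of the 10 were highest in siCtrl replicate 2 and 8 of the 10 in siKMT9α replicate 3. Without siCtrl replicate 2, the log2 fold changes in 5637 cells were −1.11 for FOS, −0.98 for FOSB and −1.76 for EGR1, and without siKMT9α replicate 3 they were −1.88, −1.39 and −2.11. All 3 genes passed in each of these fits, with adjusted p-values of at most 7.38e-05. FOSL1 and JUND, the members with the lowest coefficients in both groups, varied by 1.28% and 1.96% in siCtrl and by 2.71% and 3.21% in siKMT9α libraries. Mean counts per library in 5637 cells were 360 for FOS, 82.8 for FOSB and 6238.5 for EGR1, and 7654 for FOSL1 and 4112 for JUND. The part of depth in the spread was not tested.

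**Figure D3:**
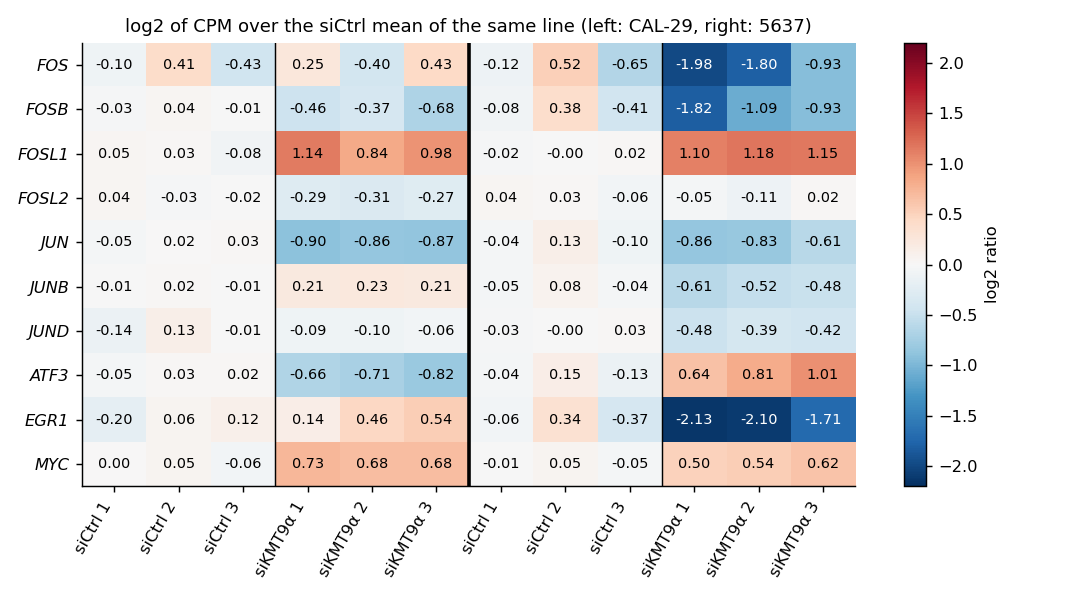
Log2 of each library's CPM over the siCtrl mean of the same line, for each gene (rows) in the CAL-29 libraries (left) and the 5637 libraries (right). In 5637 cells, the siCtrl libraries of FOS range from −0.65 to 0.52 and its siKMT9α libraries from −1.98 to −0.93, whereas FOSL1 and MYC are even within each group.

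To compare levels between genes and lines, the 12 libraries were scaled together and CPM were divided by a transcript length (CPM per kb), which makes them levels per length. The length was that of a transcript of the gene in the GENCODE annotation, which may differ from the RefSeq transcript that was counted. The order of genes within a line and the family sums and shares depend on it. In CAL-29 siCtrl cells, JUNB was at 76.4 ± 1.04 CPM per kb (SD, n = 3), JUN at 74.2 ± 2.17 and ATF3 at 47.0 ± 1.37. They were followed by JUND at 37.5, FOSL2 at 32.0, MYC at 18.2, FOSL1 at 5.74, FOSB at 2.26, EGR1 at 2.08 and FOS at 0.709 CPM per kb. Of the neighbours in that order, JUNB and JUN, and FOSB and EGR1, had overlapping libraries.

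The order in 5637 siCtrl cells was another. JUNB was at 131 ± 6.73 CPM per kb, EGR1 at 101 ± 25.0 and FOSL1 at 96.3 ± 1.10, followed by MYC at 84.0, JUN at 80.8, JUND at 80.5, FOSL2 at 24.6, ATF3 at 11.1, FOS at 8.18 and FOSB at 0.999. Overlapping neighbours were JUNB and EGR1, EGR1 and FOSL1, MYC and JUN, JUN and JUND, and ATF3 and FOS.

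Between the siCtrl cells of the lines, all 10 members differed at an adjusted p below 0.05. Of all genes tested, 42.9% were higher in CAL-29 cells and 42.5% higher in 5637 cells. EGR1 was 48.6-fold, FOSL1 16.8-fold, FOS 11.5-fold and MYC 4.61-fold higher in 5637 cells, and JUND and JUNB were 2.15-fold and 1.72-fold higher. ATF3 was 4.23-fold, FOSB 2.28-fold and FOSL2 1.30-fold higher in CAL-29 cells. JUN was 1.09-fold higher in 5637 cells (adjusted p = 0.0364), a call that did not hold without CAL-29 siCtrl replicate 1 or 5637 siCtrl replicate 2 (adjusted p = 0.0599 and 0.262), nor with DESeq2 (0.128), DESeq2 size factors in edgeR (0.0991), upper quartile scaling (0.212) or at least 10 counts in every library (0.19).

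After siKMT9α, the JUNB libraries were between 89.5 and 90.8 CPM per kb for CAL-29, and those of 5637 lay between 86.2 and 94.1. EGR1 was at 2.75 ± 0.390 CPM per kb in CAL-29 and 25.9 ± 4.47 in 5637 cells, and ATF3 at 28.7 ± 1.64 and 19.8 ± 2.52. For these genes the levels of the lines were closer together than in siCtrl cells. FOSL1, at 11.6 ± 1.19 and 213 ± 5.65 CPM per kb, stayed far apart and became the most abundant member of all 10 in 5637 cells.

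The summed transcript level of the FOS family was 40.7 ± 0.908 CPM per kb in siCtrl and 40.5 ± 1.53 in siKMT9α CAL-29 cells, with overlapping libraries. In 5637 cells, it was 130 ± 3.65 in siCtrl and 240 ± 6.34 in siKMT9α, with the libraries apart. The make-up shifted towards FOSL1 in both lines. Its share of the family was 14.1 ± 0.445% in siCtrl and 28.5 ± 1.92% in siKMT9α CAL-29 cells, and 74.1 ± 2.58% and 88.7 ± 0.846% in 5637 cells. FOSL2 held most of the rest, with 78.6 ± 1.03% and 65.5 ± 1.95% in CAL-29 cells and, for 5637, 18.9 ± 0.569% and 9.93 ± 0.487%. FOS made up 6.25 ± 2.35% of the family in siCtrl and 1.20 ± 0.480% in siKMT9α 5637 cells.

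The JUN family was at 188 ± 6.34 CPM per kb in siCtrl and 167 ± 1.26 in siKMT9α CAL-29 cells, and at 292 ± 13.0 and 198 ± 9.45 in 5637 cells, with the libraries apart in both lines. JUN made up 39.4 ± 0.641% of it in siCtrl and 24.5 ± 0.195% in siKMT9α CAL-29 cells, where the share of JUNB was 40.7 ± 0.909% and 53.9 ± 0.278%. In 5637 cells, where all 3 JUN genes were downregulated, the JUN share was 27.6 ± 1.16% and 24.0 ± 1.37% and that of JUNB 44.8 ± 0.327% and 45.7 ± 0.418%. These sums are of transcripts and do not give the amounts of protein or of dimers, and they are given without a test.

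**Figure D4:**
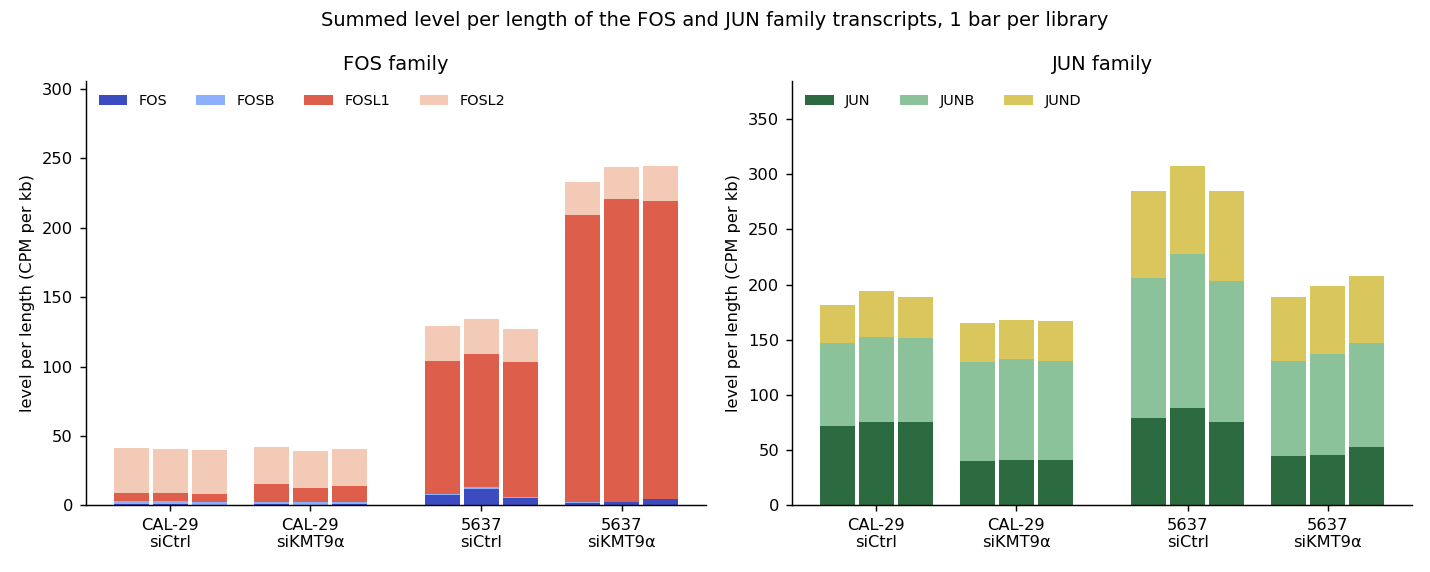
Summed level per length (CPM per kb, 12 libraries scaled together) of the FOS family (left) and the JUN family (right), 1 bar per library, stacked by gene. The FOS family of 5637 cells grows from 130 to 240 CPM per kb with FOSL1 as its main part, and the JUN part of the JUN family shrinks in both lines.

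For the 3 members with the largest changes in the same direction in both lines, the genes with the most similar pattern were sought among 11909 genes, by the root mean square difference over the 12 libraries of log2 CPM relative to the siCtrl mean of the line. FOSL1 was most like HK2 (hexokinase 2, of glycolysis), with a difference of 0.0706, followed by ZCCHC9 and TRMT61A. JUN was most like LRIF1 at 0.0486, followed by RHOB and RBMS2. MYC was most like PPAN, a ribosome biogenesis gene, at 0.0456, followed by BOD1 and XXYLT1. With levels set relative to siCtrl, this measure mostly compares the size of the change in each line. Among 11909 genes, close matches can arise without a link between the genes, and no link was tested.

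Other basic leucine zipper genes whose products can pair with FOS or JUN proteins moved in both directions. Of 16 tested in CAL-29 cells, 4 rose and 6 fell (median log2 fold change −0.06), and of 15 tested in 5637 cells, 5 rose and 7 fell (median −0.06). Over all genes tested, the median was −0.02 in CAL-29 and −0.01 in 5637 cells. CREB5, a CRE-binding partner of JUN, was downregulated by −3.94 ± 0.20 in CAL-29 and −1.45 ± 0.09 in 5637 cells. MAF was downregulated by −2.68 ± 0.11 and −1.92 ± 0.15, and MAFF, a small MAF protein without a transactivation domain, was upregulated by 0.62 ± 0.07 and 0.45 ± 0.04.

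Of 34 other immediate early genes tested in CAL-29 cells, 11 were upregulated and 16 downregulated (median −0.31), and of 32 in 5637 cells 16 and 13 (median 0.10). Of the 32 tested in both lines, 8 were upregulated in each, 9 downregulated in each and 6 moved in opposite directions, beside 22.6%, 21.7% and 9.89% of all genes tested in both lines. CCN1, a secreted matricellular protein, fell from 895 ± 93.6 to 298 ± 8.12 CPM in CAL-29 cells and from 534 ± 51.2 to 189 ± 25.2 CPM in 5637 cells. DUSP2, a phosphatase of MAP kinases, was downregulated by −1.25 ± 0.15 and −0.58 ± 0.09. PHLDA1 rose from 78.3 ± 4.61 to 381 ± 28.1 CPM in CAL-29 cells and from 205 ± 9.92 to 525 ± 14.2 CPM in 5637 cells, and NR4A2, an orphan nuclear receptor, was upregulated by 1.28 ± 0.16 and 0.83 ± 0.11.

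Among the 31 kinases and factors upstream of these promoters, 10 rose and 11 fell in CAL-29 cells (median 0.00), and 15 rose and 12 fell in 5637 cells (median 0.10). MAPK3, which encodes the kinase ERK1, fell from 30.2 ± 2.17 to 15.7 ± 0.974 CPM in CAL-29 cells and from 39.3 ± 1.72 to 14.2 ± 1.20 CPM in 5637 cells. ELK4, a ternary complex factor that binds beside CArG boxes with serum response factor, was downregulated by −0.81 ± 0.05 and −1.25 ± 0.05. RPS6KA5, which encodes the histone kinase MSK1, was upregulated by 1.38 ± 0.10 and 0.38 ± 0.08, and RPS6KA2, of the ribosomal S6 kinases, by 0.44 ± 0.05 and 0.78 ± 0.03.

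Of the corepressors and turnover factors of EGR1, JUN, FOS and MYC, 11 of 18 rose and 2 fell in CAL-29 cells (median 0.30), and 10 of 17 rose and 4 fell in 5637 cells (median 0.25). Background shares, up and down, were 34.3% and 35.2% for CAL-29 and 35.1% and 35.6% for 5637, without a test of the difference. NAB1, which binds EGR proteins and represses their activity, was downregulated by −1.10 ± 0.07 and −1.23 ± 0.04. FBXL14 and SKP2, which encode F-box proteins of ubiquitin ligases, were upregulated by 1.15 ± 0.09 and 0.79 ± 0.05 in CAL-29 cells and by 0.66 ± 0.07 and 0.30 ± 0.04 in 5637 cells.

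In the MYC network, 4 of 12 genes rose and 5 fell in CAL-29 cells (median 0.04), and 6 of 11 rose and 2 fell in 5637 cells (median 0.15). MXD1, which competes with MYC for MAX, was downregulated by −1.26 ± 0.05 and −0.53 ± 0.08, whereas MYCL, a MYC paralogue, was upregulated by 1.22 ± 0.07 and 0.33 ± 0.09 and MAX by 0.57 ± 0.05 and 0.22 ± 0.04.

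Of the 32 MYC target genes, which serve ribosome production, nucleotide and polyamine synthesis and growth, 31 rose and 1 fell in CAL-29 cells (median 0.69), and 27 rose and 1 fell in 5637 cells (median 0.35). All 27 were upregulated in CAL-29 cells too. Of all genes, 34.3% rose in CAL-29 cells, 35.1% in 5637 cells and 22.6% in both. The difference from these shares was not tested. The downregulated gene was CCND2 in both lines, which encodes cyclin D2 and is named here after its values were seen, at −1.06 ± 0.41 in CAL-29 and −0.75 ± 0.32 in 5637 cells. CCND2 was barely expressed, at 0.61 CPM in siCtrl and 0.29 in siKMT9α CAL-29 cells, and at 0.86 and 0.52 CPM in 5637 cells. HK2 was upregulated by 0.99 ± 0.06 and 1.13 ± 0.04, and POLR1B, a subunit of RNA polymerase I, by 1.18 ± 0.07 and 0.86 ± 0.04.

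Of the known AP-1 target genes, 28 were tested in each line: 10 rose and 14 fell in CAL-29 cells (median −0.27) and 14 rose and 11 fell in 5637 cells (median 0.07), and 7 of the 27 tested in both lines moved in opposite directions, against 9.89% of all genes tested in both lines. IVL, which encodes involucrin of squamous epithelium, was downregulated by −1.91 ± 0.05 and −2.42 ± 0.16, and the cytokine gene IL11 by −1.91 ± 0.09 and −1.90 ± 0.07. HMOX1, which encodes the haem-degrading enzyme, was upregulated by 2.05 ± 0.07 and 0.71 ± 0.08, and PLAU, the urokinase gene, by 0.90 ± 0.06 and 0.82 ± 0.03.

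Of the 16 EGR1 target genes, 5 rose and 8 fell in CAL-29 cells (median −0.51), where EGR1 itself rose, and 4 rose and 10 fell in 5637 cells (median −0.31), where it fell. The background was 34.3% up and 35.2% down for CAL-29 and 35.1% and 35.6% for 5637, and the difference was not tested. PDGFB, a growth factor gene, was downregulated by −2.06 ± 0.06 and −0.68 ± 0.04, and FN1, which encodes fibronectin, by −1.83 ± 0.06 and −0.49 ± 0.03. F3, the tissue factor gene, was upregulated by 1.18 ± 0.08 and 1.33 ± 0.05.

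**Figure D5:**
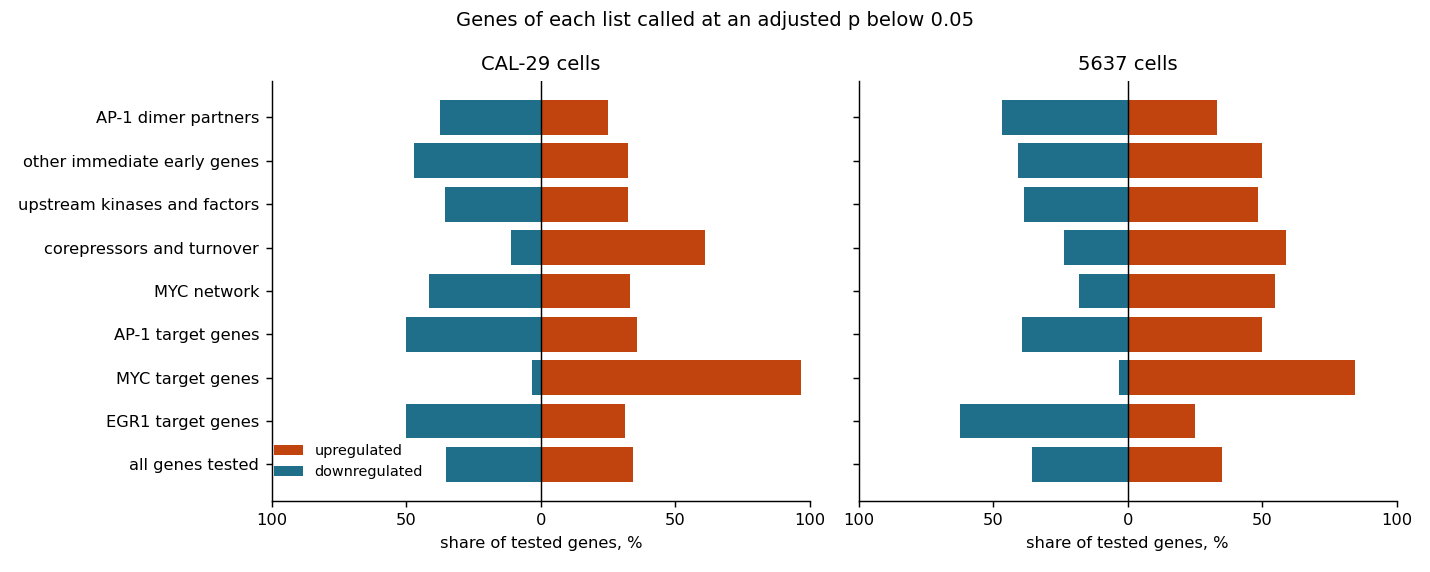
Share of the tested genes of each list, in percent, that were upregulated (orange, to the right) or downregulated (blue, to the left) at an adjusted p below 0.05 in CAL-29 and 5637 cells, with all genes tested at the bottom. Of the MYC target genes, 31 of 32 and 27 of 32 were upregulated, whereas AP-1 and EGR1 target genes were called in both directions.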

How the data were processed

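RNAseq of 12 libraries was analysed: 3 of siCtrl and 3 of siKMT9α for CAL-29 and for 5637 cells. Reads had been aligned with STAR to hg19 and counted per RefSeq transcript by Homer at its defaults, and the authors deposited tables of estimated counts that were not normalized. These come in steps of 0.5 and cover 37400 transcripts of 23064 symbols. Columns with the authors' comparison (p-value, adjusted p-value, log2 fold change) were not used. The siRNA, called si270 in the tables, was taken to be siKMT9α#1 from the study's text, and replicate numbers were taken from sample titles.

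Per symbol, the transcript with the most counts in a line was kept and its estimated counts were rounded. In edgeR 4.0.16 (R 4.3.3), libraries were TMM-scaled, low genes were dropped by filterByExpr, and siKMT9α was tested against siCtrl within a line by the quasi-likelihood F test, with no further term. The standard error is the log2 fold change divided by the square root of F. The difference between the lines and the siCtrl levels were tested in 1 model of all 12 libraries. Pooled over genes, replicates differed by more than sampling noise (chi-square per degree of freedom of 2.22 to 11.7). This does not show what limits the precision of single genes with few counts, such as FOS in CAL-29 cells at a mean of 43.8. An exact permutation test of 3 against 3 libraries cannot go below 0.1 and was not used for calls.

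Members and 8 gene lists were chosen with earlier results of these data known. From each list, at most 2 genes with the highest and 2 with the lowest mean change were named, among genes that both lines called in 1 direction and averaging 50 counts or more per line. A gene that this rule names is not reported here. Similar genes were sought for the 3 members with the largest smaller change in both lines. Sequences are from RefSeq (promoters, GRCh38.p14) and the GRCh37 genome with GENCODE annotation. On simulated counts with known changes, 94.79% of genes changed by 1 on the log2 scale in CAL-29 cells, 99% in 5637 cells and 75% for the difference between the lines were recovered, and at 0.5 on the log2 scale 76.77%, 80% and 62%. For CAL-29, 96 genes were changed by 1 and 99 by 0.5 among 14620. In the data far more genes were called, 34.3% up and 35.2% down. The adjustment of p-values was therefore stricter in the simulation, and its rates do not give the power of the calls reported here. Alternatives were other scalings and filters, other edgeR tests, DESeq2 1.42.0, every transcript, a joint model, the replicate block, a fold threshold, sums not divided by length and each library left out.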

Additional observations from a re-analysis of the deposited data

Results flagged for a closer look

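The response to siKMT9α differed between the lines for 8 members, by the interaction of line and siRNA in the model of all 12 libraries (edgeR's quasi-likelihood test, adjusted p below 0.05), and each is given as the log2 fold change in CAL-29 minus that in 5637 cells. For EGR1 the difference was 2.36, for ATF3 −1.55 and for JUNB 0.77, and in these genes the changes had opposite signs in the lines. For FOS it was 1.60, where FOS was called in 5637 cells and its CAL-29 estimate rests on a mean of 43.8 counts. For JUND it was 0.36 and for FOSL2 −0.23, each called in a single line. For FOSB it was 0.73 and for MYC 0.16, where both lines moved the same way by different amounts. The dose, the transfection reagent and the medium differed with the line and cannot be told apart from it. Over all genes tested, the median absolute difference was 0.34.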

How the results depend on the processing

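No result reversed its direction call. The counts of members called changed most with a threshold of 1 on the absolute log2 fold change. In CAL-29 cells 0 members then remained called in either direction past 1e-06 or at an adjusted p below 0.05. The largest change of a member there was that of FOSL1, at 0.99, and 15.0% of all genes tested changed more in size. In 5637 cells 1 was upregulated and 2 downregulated past 1e-06, and 1 and 3 at an adjusted p below 0.05. The smallest change among these was that of FOSL1, at 1.15, and 7.65% of all genes tested changed more. The share of all genes called with this threshold was not counted. Other alternatives changed the counts of members by less. Past 1e-06, 3 members in place of 2 were downregulated in CAL-29 cells with DESeq2, edgeR's exact or likelihood ratio test, or the replicate block. The same held with upper quartile scaling or no filter on low counts. Over the alternatives, downregulated members at an adjusted p below 0.05 reached 5 in CAL-29 and 7 in 5637 cells. Past 1e-06 they reached 6 in 5637 cells. With scaling by total counts, 1 member in place of 2 had a response called lower in CAL-29 than in 5637 cells, since the call for FOSL2 was lost. The log2 ratio of the summed FOS family was −0.01 in CAL-29 cells, −0.19 when levels were not divided by length and 0.055 with scaling by total counts, and 0.89, 0.60 and 0.83 in 5637 cells; that of the JUN family in CAL-29 cells was −0.17, −0.30 and −0.11. The cause was not tested. Of the single genes under the alternatives, 687 values kept their side of the threshold, 19 lost the call and 4 gained it, at the genes named above. An uncalled value whose sign changed was counted as kept, as for FOS in CAL-29 cells and for the difference in JUN response (−0.10, and up to 0.02). FOS in CAL-29 cells, at a mean of 43.8 counts per library, lay between −0.05 and 0.38 on the log2 scale over the alternatives and never passed; the part of depth in this was not tested.

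The deviations of same-numbered siCtrl and siKMT9α libraries correlated at 0.149, 0.019 and 0.061 for CAL-29 and at 0.133, −0.008 and −0.014 for 5637. Those of differently numbered libraries correlated at −0.139 to 0.089 for CAL-29 and at −0.075 to 0.085 for 5637. The pair of replicates 1 had the highest value in each line, so these values do not settle whether replicate numbers pair the libraries. With the replicate block, the members called at an adjusted p below 0.05 were 4 higher and 4 lower for CAL-29, and 3 higher and 6 lower for 5637, and the difference between the lines was called for 6 members higher in CAL-29 and 2 higher in 5637 cells.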

Other observations

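Several AP-1 target genes, named here after their values were seen, moved apart between the lines. VIM, which encodes the intermediate filament vimentin, was downregulated by −4.88 in CAL-29 cells and upregulated by 0.67 in 5637 cells. CXCL8 and IL1B, both inflammatory mediators, were upregulated by 1.73 and 1.09 in CAL-29 cells and downregulated by −0.58 and −0.28 in 5637 cells. The immediate early gene EGR2, a relative of EGR1, was at −0.56 ± 0.47 in CAL-29 cells, which was not called, and was downregulated by −2.31 ± 0.52 in 5637 cells. EGR2 was barely expressed, at 0.43 CPM in siCtrl and 0.28 in siKMT9α CAL-29 cells, and at 0.67 and 0.13 CPM in 5637 cells.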
